A study of Oryzias latipes with 2 samples.

Results

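Motor proteins carry organelles along the cytoskeleton, and their genes were described here in single-cell transcriptomes of skin and scales from adult medaka (Oryzias latipes), a teleost whose skin holds several kinds of pigment cell. The members are all features of the deposited matrices whose gene symbol starts with the letters of a kinesin, a kinesin light chain, a cytoplasmic dynein subunit, a dynactin subunit or a myosin heavy chain. This gave 81 of 23601 features. They comprise 29 kinesins, 2 kinesin light chains, 16 dynein subunits, 7 dynactin subunits and 27 myosins. They carry 74 distinct symbols, and 13 of the features share 6 symbols, so copies are told apart by their Ensembl identifier where needed.

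Kinesins are microtubule motors that mostly walk towards the plus end, in pigment cells towards the cell margin. Cytoplasmic dynein walks to the minus end, towards the cell centre, and needs its activator dynactin to bind cargo and to travel far. Class V myosin takes over organelles on actin filaments. In fish and frog melanophores these motors gather and spread the melanosomes, and in medaka leucophores the same kind of transport moves the light-scattering organelles, in the opposite sense to melanosomes under adrenergic stimulation. Iridophores hold stacks of guanine crystals. Keratinocytes, fibroblasts and T cells have no pigment organelles of their own and served as the skin classes here.

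The cells came from male and female adult wild-type fish of the HdrR strain, an inbred medaka line labelled as of the Southern phenotype, with no treatment. Cells freed from skin and scales by enzyme were sorted on GFP together with mCherry signal to enrich pigment cells. Neither the gates nor a transgene behind the signals is described in the sources used here. The 2 droplet libraries, run 1 and run 2, carry the same labels. Run 1 held 4702 barcodes and 25236411 unique molecular identifiers (UMIs, each standing for 1 captured transcript), and run 2 held 614 barcodes and 6946744 UMIs. No barcode was shared between the runs. After filtering, 4347 and 556 cells remained, with medians of 4145 and 10198 UMIs. Whether each run had its own animals is not stated in the labels, so p-values here measure only the spread between these sums of cells.

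Cells were clustered without the motor genes, and 25 clusters were named from marker lists, with 4 left unnamed. The pigment classes lay mostly in different runs. Xanthophore-like cells, which in life are yellow to orange from pteridines and carotenoids, numbered 2223 in run 1 and 4 in run 2. Leucophore-like cells numbered 25 and 217, and iridophore-like cells 29 and 1. The xanthophore-like clusters met 7 or 8 of 8 xanthophore markers, the leucophore-like cluster 7 of 7 leucophore markers and the iridophore-like cluster 7 of 7 iridophore markers. Xanthophore markers summed to 6931 CPM (UMIs of a gene as counts per 1e6 UMIs of the summed cells) in the run 1 xanthophore-like cells, and to 4797 and 3771 CPM in the leucophore-like cells, so these classes share part of that list. No cluster was melanophore-like, but 2 and 8 cells of the xanthophore-like clusters had a UMI of the melanosome gene pmela and were kept apart as pmela-positive cells. The skin classes were keratinocyte-like (903 and 164 cells), fibroblast-like (265 and 33 cells) and T or NK cell-like (581 and 45 cells).

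Both xanthophore-like and leucophore-like cells carried more of a broad set of motor transcripts than the skin classes, among them the kinesin-1 heavy chain KIF5B and the organelle myosin MYO5A. Of the 81 motors, 35 passed the filter on low counts, and the counts below describe these 35 and not all members. Some classes have 1 sum, so a level above the cutoff in 1 sum was enough to pass, also in a pigment class. The 35 can thus include motors that passed only because they were high in pigment cells. All genes tested went through the same filter. A motor was called when edgeR's quasi-likelihood test gave an adjusted p (Benjamini-Hochberg) under 0.05 and the log2 fold change was 1 or more in size. By this rule 17 of the 35 (48.6%) rose in xanthophore-like cells over the mean of the 3 skin classes, where 18.7% of all 7748 genes tested did. Another 3 of 35 (8.57%) fell, against 12.9% of all genes, and in either direction 31.7% of all genes were called. In leucophore-like cells 17 of 35 rose and 2 of 35 (5.71%) fell, against 19.1% and 13.8% of all genes, or 32.9% in either direction. The median log2 fold change over the 35 was 1.35 in xanthophore-like and 1.34 in leucophore-like cells, beside 0.002 and 0.053 over all genes. These comparisons share the sums of the skin classes. The xanthophore-like class has 1 sum large enough to enter the test, that of run 1, and is taken to vary like the other classes. With DESeq2 the count of motors higher in xanthophore-like cells was 10, all among the 17.

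**Figure D1:**
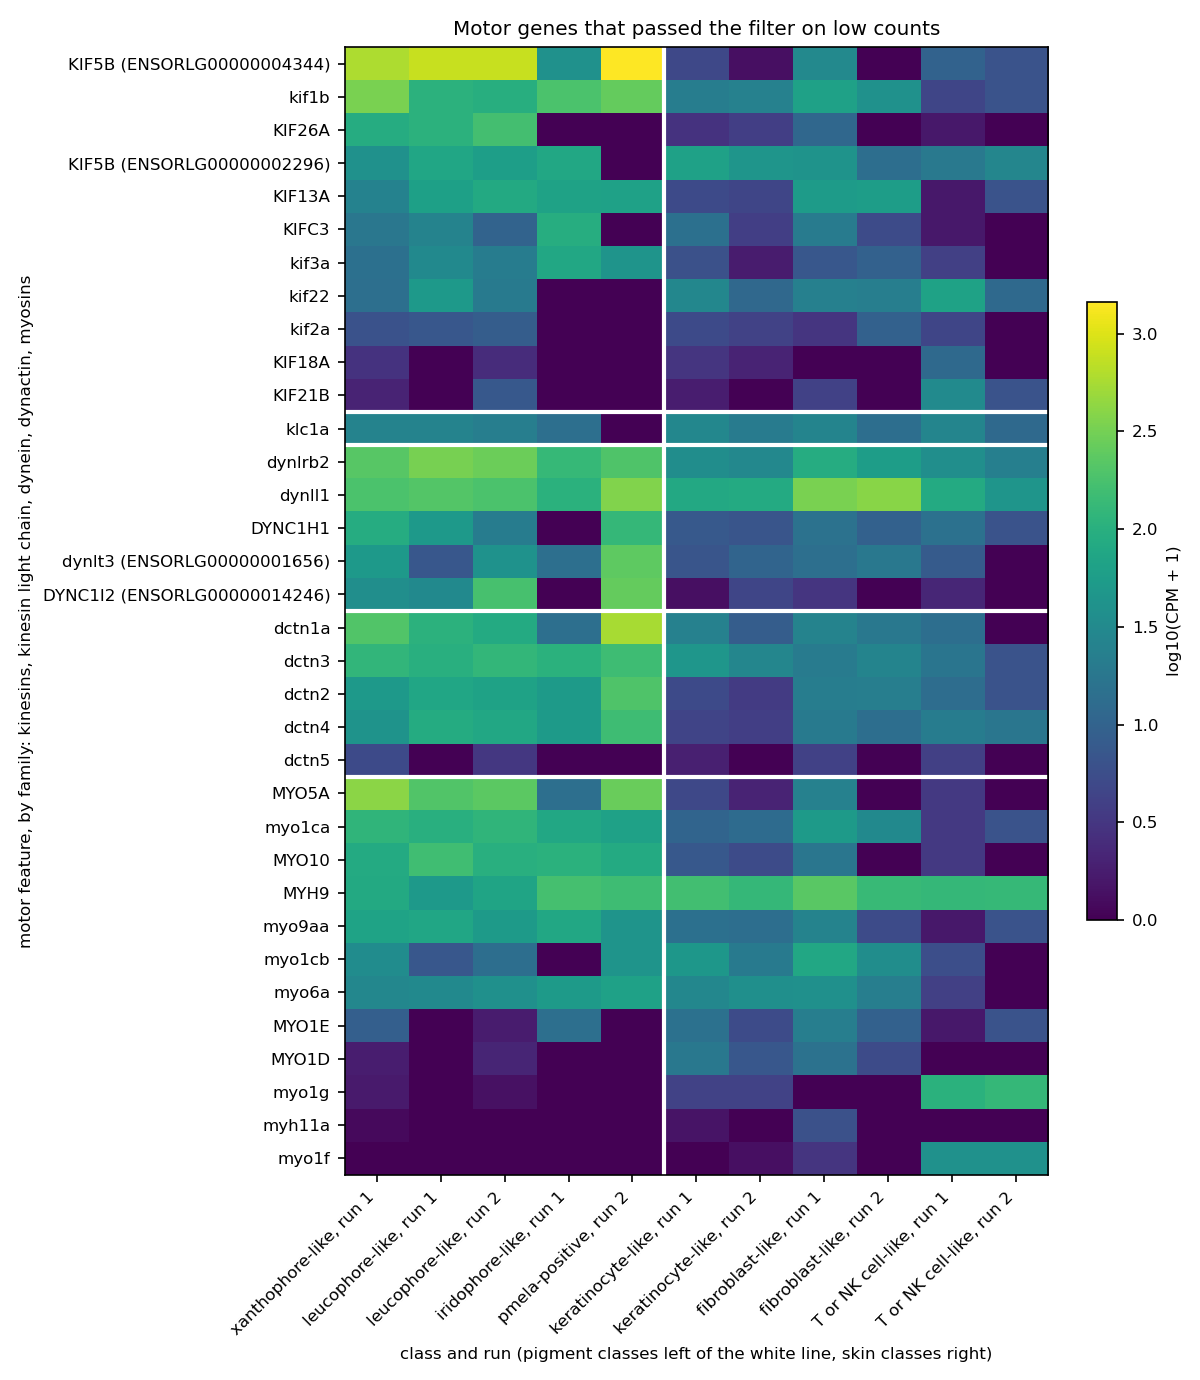
Levels of 34 of the 35 motors that passed the filter on low counts, as log10(CPM + 1), with motors in rows by family and classes by run in columns, pigment classes to the left of the vertical white line and skin classes to the right. KIF5B (ENSORLG00000004344), MYO5A and kif1b are the brightest rows of xanthophore-like cells, and myo1g and myo1f are brightest in T or NK cell-like cells.

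Among kinesins the widest gap was that of KIF5B (ENSORLG00000004344), the heavy chain of kinesin-1, which moves mitochondria, vesicles and, in mammalian melanocytes, melanosomes outward. Its level was 598 CPM in xanthophore-like cells and 786 and 793 CPM in leucophore-like cells (run 1, then run 2, as in all pairs of values). In the skin classes it stood at 3.87 and 0.361 CPM in keratinocyte-like, 29.9 and 0 CPM in fibroblast-like and 8.81 and 5.47 CPM in T or NK cell-like cells. Every sum of these 2 pigment classes thus lay above every sum of the skin classes. The log2 fold change was 5.78 (SE 0.44, edgeR adjusted p = 1.6e-19) in xanthophore-like and 6.82 (SE 0.40, edgeR adjusted p = 1.01e-26) in leucophore-like cells. Within run 1 the level in xanthophore-like cells was 19.99 times that of fibroblast-like cells, the highest skin class (exact interval 13.9 to 29.9), and in leucophore-like cells it was 26.3 times as high (17.5 to 40.8). The 29 UMIs of fibroblast-like cells of run 1 fell in 11 of 265 cells, and the 8 xanthophore markers summed to 462 CPM in these fibroblast-like cells and to 13.0 CPM in those of run 2. The part of RNA from other cells in these skin values was not tested.

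kif1b, a kinesin-3 that carries mitochondria and, in neurons, vesicle precursors, was the second most abundant kinesin of xanthophore-like cells. It had 335 CPM in xanthophore-like cells, and 105 and 94.9 CPM in leucophore-like cells, against 63.9 and 38.9 CPM in fibroblast-like, 21.1 and 23.4 CPM in keratinocyte-like and 3.53 and 5.47 CPM in T or NK cell-like cells. The pigment sums again lay above all skin sums, and the log2 fold change was 4.02 (SE 0.42) in xanthophore-like and 2.20 (SE 0.41) in leucophore-like cells. KIF26A, an atypical kinesin that in mammals binds microtubules without walking on them, stood at 89.2 CPM in xanthophore-like and at 105 and 163 CPM in leucophore-like cells. It reached at most 10.3 CPM in a skin class, in fibroblast-like cells of run 1. Its log2 fold changes were 5.01 (SE 0.55) and 5.69 (SE 0.52). Endothelial-like cells, which are not among the skin classes compared, had 129 and 48.7 CPM. Their run 1 level lay above the xanthophore-like and leucophore-like sums of that run.

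KIF13A, a kinesin-3 that in human pigment cells positions the endosomes that feed melanosomes, was called in both classes. In xanthophore-like cells it did not stand above every skin class. It had 24.2 CPM in xanthophore-like and 61.9 and 83.1 CPM in leucophore-like cells. Fibroblast-like cells had 53.6 and 56.2 CPM, against at most 5.47 CPM in the other 2 skin classes. The leucophore-like level lay above that of fibroblast-like cells in both runs, but the exact intervals of the ratio included 1 (0.523 to 2.30 and 0.846 to 2.82). In xanthophore-like cells the level was thus below that of fibroblast-like cells (ratio 0.451, exact interval 0.333 to 0.620), and the call rests on the mean over the skin classes. It was lost in 3 of 16 alternatives. kif3a, a motor subunit of kinesin-2, which spreads melanosomes in frog melanophores, had 13.9 CPM in xanthophore-like cells and was not called there (edgeR adjusted p = 0.165). In leucophore-like cells it had 31.0 and 20.2 CPM, against 0 to 8.65 CPM in the skin sums, and was called at a log2 fold change of 2.77 (SE 0.74). KIFC3, a kinesin that walks towards the minus end and acts at cell junctions in mammalian epithelia, was called in leucophore-like cells as well (log2 fold change 2.25, SE 0.77), at 24.8 and 9.15 CPM against 0 to 19.6 CPM, a call lost in 8 of 16 alternatives. kif3b, the partner of kif3a, did not pass the filter, at 3.20 CPM in xanthophore-like and 6.19 and 4.96 CPM in leucophore-like cells.

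Kinesin light chains link kinesin-1 to cargo, and the 1 light chain tested here, klc1a, did not follow the heavy chain. Without the neutrophil-like sum it did not pass the filter. klc1a had 25.1 CPM in xanthophore-like and 24.8 and 21.4 CPM in leucophore-like cells. The skin classes had 28.2 and 19.8 CPM (keratinocyte-like), 25.8 and 13.0 CPM (fibroblast-like) and 26.4 and 10.9 CPM (T or NK cell-like), so the groups overlapped. Its log2 fold changes were −0.32 (SE 0.53) and −0.14 (SE 0.51), neither called. klc3, the other light chain found by symbol, did not pass the filter and had 3.69 CPM in xanthophore-like and 0 and 4.19 CPM in leucophore-like cells. In the other direction kif22, a kinesin that binds chromosomes in mitosis, fell in xanthophore-like cells by 1.70 on the log2 scale (SE 0.58), with 13.4 CPM against 10.8 to 65.8 CPM in the skin sums, so the levels overlapped. That call was lost in 6 of 16 alternatives.

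Dynein subunits rose in the same classes, though not all of them. The heavy chain DYNC1H1, which holds the motor domain, had 89.7 CPM in xanthophore-like and 49.5 and 20.2 CPM in leucophore-like cells. It had 6.599 and 5.77 CPM in keratinocyte-like, 14.4 and 8.65 CPM in fibroblast-like and 14.1 and 5.47 CPM in T or NK cell-like cells. All of these lay below the xanthophore-like and leucophore-like sums. The log2 fold change was 2.69 (SE 0.49) in xanthophore-like cells and 1.34 (SE 0.53, edgeR adjusted p = 0.0381) in leucophore-like cells. The leucophore-like call was lost in 12 of 16 alternatives, where the adjusted p reached 0.322. The xanthophore-like call held in all 16.

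The intermediate chain DYNC1I2 (ENSORLG00000014246), which connects dynein to dynactin, had 35.1 CPM in xanthophore-like and 31.0 and 174 CPM in leucophore-like cells. The 6 skin sums ran from 0 to 3.61 CPM, far below both classes. Its log2 fold changes were 5.08 (SE 0.62) and 5.18 (SE 0.59). The leucophore-like sums of the 2 runs themselves differed, with 5 of 161566 UMIs in run 1 and 456 of 2623024 UMIs in run 2. Keratinocyte-like cells were also higher in run 2, at 0.341 and 3.61 CPM. Fibroblast-like and T or NK cell-like cells went the other way, from 2.06 and 1.18 CPM in run 1 to 0 in run 2. The light chain dynlrb2, of the roadblock type, was the most abundant dynein subunit of both classes, at 216 CPM in xanthophore-like and 322 and 279 CPM in leucophore-like cells, against 21.9 to 88.7 CPM in the skin sums. It rose by 1.86 (SE 0.42) and 2.55 (SE 0.34) on the log2 scale. dynlt3 (ENSORLG00000001656), a light chain of the Tctex type, rose in xanthophore-like cells only by the test, at 48.3 CPM and a log2 fold change of 2.38 (SE 0.54). In leucophore-like cells it had 6.19 and 39.7 CPM (log2 fold change 1.15, SE 0.57, not called), and the test between the 2 classes did not pass either (log2 fold change −1.23, SE 0.76).

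dynll1, a light chain that many other complexes share, was as abundant but not a mark of pigment cells. It had 183 CPM in xanthophore-like and 204 and 183 CPM in leucophore-like cells, against 335 and 402 CPM in fibroblast-like cells, 80.2 and 84.7 CPM in keratinocyte-like cells and 85.8 and 43.8 CPM in T or NK cell-like cells. Neither fold change was called (0.21, SE 0.44, and 0.20, SE 0.35). Fibroblast-like cells thus lay highest and the other skin classes below the pigment sums.

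Of the 5 dynactin subunits tested, 4 were called higher in xanthophore-like and the same 4 in leucophore-like cells. Of all genes, 18.7% and 19.1% were called higher in each class taken alone, and the share called in both was not computed. For dynein the counts were 4 and 3 of 5. dctn1a, the large subunit that grips the microtubule and dynein, led in xanthophore-like cells at 198 CPM, with 105 and 83.9 CPM in leucophore-like cells. The skin sums had 23.4 and 7.57 CPM (keratinocyte-like), 24.7 and 17.3 CPM (fibroblast-like) and 12.9 and 0 CPM (T or NK cell-like), all lower. The log2 fold change was 3.13 (SE 0.45) in xanthophore-like and 2.58 (SE 0.44) in leucophore-like cells. dctn2, the dynamitin subunit of the shoulder of the complex, had 49.4 CPM in xanthophore-like and 74.3 and 65.2 CPM in leucophore-like cells, against 2.52 to 21.6 CPM (log2 fold change 1.96, SE 0.49, and 2.70, SE 0.46). dctn3, a smaller shoulder subunit, had 121 CPM and 99.0 and 124 CPM, against 5.47 to 45.3 CPM (2.14, SE 0.45, and 1.99, SE 0.42). dctn4, of the pointed end, had 40.6 CPM and 86.7 and 77.4 CPM, against 2.88 to 20.6 CPM (1.58, SE 0.49, and 2.75, SE 0.45). For each of these 4 subunits, all xanthophore-like and leucophore-like sums lay above all skin sums. The calls use the same sums, and the share of all called genes that lay so was not computed. The pointed-end subunit DCTN6 and a second p150-type feature, DCTN1, did not pass the filter, and DCTN1 had 0.388 CPM in xanthophore-like and 0 and 1.14 CPM in leucophore-like cells.

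**Figure D2:**
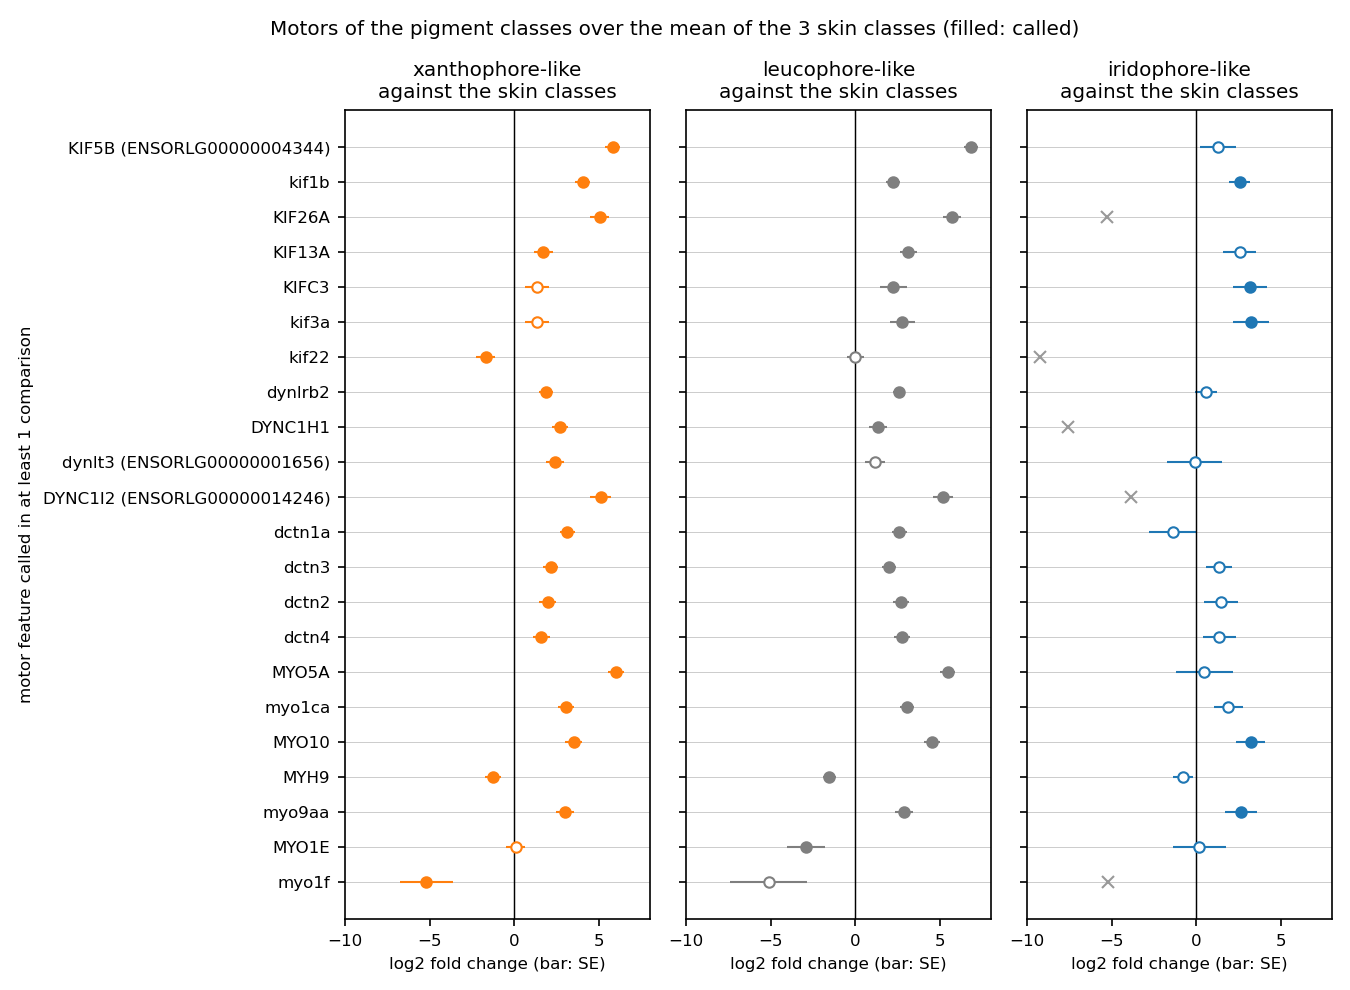
Log2 fold changes of 22 of the 23 motors called in at least 1 comparison, for xanthophore-like, leucophore-like and iridophore-like cells over the mean of the 3 skin classes. Points are edgeR estimates with SE bars, filled points were called, and grey crosses mark fits with an SE above 3, whose size depends on a small added count. KIF5B (ENSORLG00000004344), MYO5A and 4 dynactin subunits are filled for xanthophore-like and leucophore-like cells and open for iridophore-like cells.

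Myosins were split. MYO5A, the class V myosin that holds melanosomes in the actin-rich cell margin of mouse melanocytes, had 404 CPM in xanthophore-like and 198 and 229.5 CPM in leucophore-like cells. The skin sums ran from 3.87 and 1.08 CPM in keratinocyte-like cells to 23.7 and 0 CPM in fibroblast-like and 2.35 and 0 CPM in T or NK cell-like cells, so no skin sum came near. The log2 fold change was 6.01 (SE 0.47, edgeR adjusted p = 3.11e-19) in xanthophore-like and 5.43 (SE 0.45, edgeR adjusted p = 3.85e-18) in leucophore-like cells. MYO10, a myosin of filopodia, had 84.4 CPM and 155 and 97.2 CPM, against at most 16.5 CPM, and rose by 3.49 (SE 0.50) and 4.52 (SE 0.47). myo9aa, a class IX myosin, had 67.8 CPM and 74.3 and 52.6 CPM, against at most 24.7 CPM, and rose by 3.0 (SE 0.53) and 2.87 (SE 0.53). For each of these 3 myosins the xanthophore-like and leucophore-like sums did not overlap with the skin sums. Here too the share among all called genes was not computed.

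Class I myosins, single-headed motors that tether membranes to actin, went both ways. myo1ca had 116 CPM in xanthophore-like and 99.0 and 117 CPM in leucophore-like cells, against at most 52.6 CPM in a skin sum, and rose by 3.04 (SE 0.47) and 3.03 (SE 0.43). MYO1E fell in leucophore-like cells by 2.91 (SE 1.13), at 0 and 0.763 CPM against 0.588 to 21.7 CPM, with some overlap between runs, a call lost in 7 of 16 alternatives. myo1f and myo1g, class I myosins of white blood cells, had 38.8 and 38.3 CPM and 105 and 126 CPM in T or NK cell-like cells. myo1f had 0 UMIs in each xanthophore-like, leucophore-like and iridophore-like sum, and it was called lower in xanthophore-like cells, where the fitted size of −5.19 depends on a small added count. It was also near absent from keratinocyte-like (0 and 0.361 CPM) and fibroblast-like cells (2.06 and 0 CPM). The call thus rests on T or NK cell-like cells. It was lost in 4 of 15 alternatives, and without the neutrophil-like sum myo1f did not pass the filter.

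MYH9, the heavy chain of non-muscle myosin IIA, which pulls actin filaments together, was the most abundant myosin of every skin class. It was lower in xanthophore-like and leucophore-like cells. It had 82.4 CPM in xanthophore-like and 49.5 and 69.4 CPM in leucophore-like cells, against 223 and 134 CPM in fibroblast-like, 161 and 127 CPM in keratinocyte-like and 128 and 131 CPM in T or NK cell-like cells. The groups did not overlap. It fell by 1.53 on the log2 scale (SE 0.39, edgeR adjusted p = 0.000924) in leucophore-like cells and by 1.26 (SE 0.48, edgeR adjusted p = 0.0365) in xanthophore-like cells, and the second call was lost in 8 of 16 alternatives.

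Summed over each family, the xanthophore-like and leucophore-like sums lay above all skin sums for kinesins, dynactin, myosins and dynein but not for the light chains. All 29 kinesins summed to 1187 CPM in xanthophore-like and 1294 and 1297 CPM in leucophore-like cells, against 297 and 173 CPM in fibroblast-like, 183 and 117 CPM in keratinocyte-like and 200 and 76.6 CPM in T or NK cell-like cells. The dynactin subunits summed to 429 CPM and to 371 and 371 CPM, against 32.8 to 94.9 CPM. The 27 myosins summed to 912 CPM and to 650 and 649 CPM, against 242 to 524 CPM. The dynein sums came nearer to a skin class, at 652 CPM and 656 and 769 CPM, against 521 and 562 CPM in fibroblast-like cells and 82.0 to 162 CPM in the other skin classes. The light chains overlapped, at 28.8 CPM and 24.8 and 25.5 CPM against 10.9 to 28.8 CPM. Single called motors made up a large part of the myosin and dynein sums. MYO5A alone had 404 CPM and 198 and 229.5 CPM, against at most 23.7 CPM in a skin sum. dynlrb2 had 216 CPM and 322 and 279 CPM, against at most 88.7 CPM. The gaps of myosins and dynein to fibroblast-like cells thus rest on these motors.

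Of the 17 motors called higher in xanthophore-like cells, 16 lay above all 3 skin classes within run 1. The exception was KIF13A. In leucophore-like cells all 17 lay above all 3 skin classes in both runs, and the exact interval of the ratio to the highest skin class stayed above 1 for 14 of them in run 1 and for 13 in run 2. These ratios use the same sums as the calls and are a description. The share among all genes called higher was not computed, so these counts do not set motors apart from other called genes. Intervals cover counting error only.

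In iridophore-like cells the share of motors called was near that of all genes. Of the 35 motors, 5 (14.3%) rose over the skin classes and 0 fell, against 9.19% and 4.69% of all genes. In either direction 13.9% of all genes were called. At an unadjusted p under 0.05 in the edgeR test, 9 of the 35 motors passed, beside 1817 of all 7748 genes, a similar share. DESeq2 called 3 motors higher and 0 lower. The class rests on 1 sum of 29 cells and 76375 UMIs, so each motor has few UMIs, and the median log2 fold change of all genes was −0.72, which was −0.245 with RLE scaling and 0.13 with DESeq2. The median of the 35 motors was −0.80. The 15 keratinocyte markers summed to 3025 CPM and the 14 fibroblast markers to 1296 CPM in this sum, with 7 and 4 of them holding a UMI, against 1446 and 68.4 CPM in the xanthophore-like sum. The part of those cells in the iridophore-like values was not tested.

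The 5 called motors were kif1b, kif3a, KIFC3, MYO10 and myo9aa. Among the sums compared, kif3a and KIFC3 reached at most 31.0 and 24.8 CPM outside the iridophore-like sum. Both may thus have passed the filter only through the class where they are high. kif1b, the most abundant kinesin of the class, had 14 UMIs or 183 CPM in iridophore-like cells, against at most 63.9 CPM in a skin sum (log2 fold change 2.55, SE 0.64, edgeR adjusted p = 0.00189). MYO10 had 105 CPM against at most 16.5 CPM (3.21, SE 0.85, edgeR adjusted p = 0.00358). kif3a had 78.6 CPM against at most 8.65 CPM (3.22, SE 1.05, edgeR adjusted p = 0.0247). KIFC3 had 91.7 CPM against at most 19.6 CPM (3.18, SE 0.98, edgeR adjusted p = 0.0164). All 5 called motors lay above every skin sum, a share not computed for all called genes. The calls of myo9aa, KIFC3 and kif3a were lost in 9, 6 and 5 of 16 alternatives. kif1b, MYO10 and myo9aa were the 3 motors called higher in all 3 pigment classes. The share of all genes called higher in all 3 was not computed, and the 3 comparisons share the sums of the skin classes.

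KIF5B, MYO5A and dctn1a had few UMIs in iridophore-like cells. KIF5B (ENSORLG00000004344) had 3 UMIs, or 39.3 CPM, and was 0.0657 times the xanthophore-like level of the same run (exact interval 0.0136 to 0.192). Against the skin classes it was not called (log2 fold change 1.27, SE 1.07), but at clustering resolution 2 it was called higher (2.67, edgeR adjusted p = 0.00648). MYO5A and dctn1a had 1 UMI each, or 13.1 CPM, at 0.0324 times (0.000821 to 0.181) and 0.0662 times (0.00167 to 0.369) that level. These intervals lie below 1, as they do against leucophore-like cells of run 1, where the ratios were 0.04997, 0.0661 and 0.124. The 1 iridophore-like cell of run 2 held 1 UMI of KIF26A and 2 UMIs of KIF5B (ENSORLG00000004344). In the iridophore-like sum of run 1, DYNC1H1 and KIF26A had 0 UMIs. The exact intervals of their ratios to xanthophore-like cells reached up to 0.539 and 0.542. Against leucophore-like cells of run 1 the limits were 1.24 for DYNC1H1, an interval that includes 1, and 0.513 for KIF26A. Other subunits of the same machines had more UMIs. dctn3 had 105 CPM, dctn2 and dctn4 had 52.4 CPM each and dynlrb2 had 131 CPM, and the exact intervals of their ratios to xanthophore-like cells included 1. Against leucophore-like cells of run 1 they did so too for the 3 dynactin subunits, while dynlrb2 was at 0.407 times (0.184 to 0.809). In the other direction kif3a was 5.66 times (2.04 to 12.6), KIFC3 5.37 times (2.13 to 11.3) and MYH9 2.07 times (1.096 to 3.55) the xanthophore-like level. With 1 sum on each side these are comparisons of 2 sums of cells and were not tested between classes.

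Between leucophore-like and xanthophore-like cells 1 motor was called. Of the 35, 0 were higher and 1 (2.86%) was lower in leucophore-like cells, against 4.84% and 5.77% of all genes, or 10.6% in either direction. At an unadjusted p under 0.05 in the edgeR test, 7 of the 35 motors passed, beside 1576 of all 7748 genes, a similar share. DESeq2 called 0 motors in either direction. The 1 called motor was kif1b, which leucophore-like cells held at 105 and 94.9 CPM, against 335 CPM in the xanthophore-like sum. Its log2 fold change was −1.82 (SE 0.54, edgeR adjusted p = 0.0137). The call was lost in 5 of 16 alternatives, among them leaving out either leucophore-like sum, and the log2 fold change stayed between −2.12 and −1.49.

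The other motors were not called, and the fit does not show that they are alike. KIF5B (ENSORLG00000004344) had a log2 fold change of 1.03 (SE 0.62), which went to 3.65 (edgeR adjusted p = 0.00655) without the leucophore-like sum of run 1, a fit in which the classes share no run. MYO5A stood at −0.58 (SE 0.62), DYNC1H1 at −1.35 (SE 0.67) and KIF13A at 1.40 (SE 0.65). The median over the 35 motors was 0.10, beside 0.002 over all genes. Xanthophore-like cells lie in run 1 and most leucophore-like cells in run 2. Only the 25 leucophore-like cells of run 1 thus compare the classes within a run. The leucophore-like sum of run 2 enters through a run effect that the other classes help to set.

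The 8 pmela-positive cells of run 2 stood above the xanthophore-like and leucophore-like sums in KIF5B and dctn1a, and were too few for the test. The 8 melanophore markers summed to 16950 CPM in these cells, against 1480 CPM in the xanthophore-like sum and 1745 and 1917 CPM in the leucophore-like sums. pmela is among these markers and was used to pick the cells, and cells holding it were left out of the xanthophore-like sum. Part of that gap was thus set by the choice of cells. KIF5B (ENSORLG00000004344) had 68 UMIs, or 1452 CPM (exact interval 1127 to 1840), and all 8 cells held it. dctn1a had 26 UMIs, or 555 CPM (363 to 813), also in all 8 cells. The 2 pmela-positive cells of run 1 had 923 CPM of KIF5B (ENSORLG00000004344) from 5 UMIs. MYO5A had 277.5 CPM, kif1b 256 CPM and DYNC1I2 (ENSORLG00000014246) 256 CPM in the cells of run 2, and KIF1A, a kinesin-3 best known from axons, had 107 CPM from 5 UMIs. KIF1A otherwise reached 15.5 CPM, in xanthophore-like cells, with at most 0.361 CPM in a skin sum.

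For KIF5B and the myosin 1c pair, the xanthophore-like and leucophore-like cells drew on the 2 features in other proportions than keratinocyte-like cells. For DYNC1I2 this was less clear. Of all KIF5B UMIs, ENSORLG00000004344 held 93.9% in xanthophore-like cells (exact interval 93.3 to 94.5%) and 91.4% and 93.2% in leucophore-like cells. In keratinocyte-like cells it held 5.67% (3.96 to 7.83%) and 0.820%, in fibroblast-like cells of run 1 42.0% and in T or NK cell-like cells of run 1 32.6%. The second feature, ENSORLG00000002296, had 38.6 CPM in xanthophore-like and 74.3 and 57.6 CPM in leucophore-like cells, against 41.2 and 13.0 CPM in fibroblast-like, 64.4 and 43.6 CPM in keratinocyte-like and 18.2 and 27.4 CPM in T or NK cell-like cells. Its levels overlapped and it was not called (log2 fold changes −0.12, SE 0.50, and 0.66, SE 0.44). The rise thus lay on 1 of the 2 KIF5B features. In iridophore-like cells the shares could not be set apart, with 3 UMIs on the first and 6 on the second feature. How far reads of near-identical copies were split in counting is not given in the sources used here.

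DYNC1I2 differed in the same direction, but not clearly in every sum. ENSORLG00000014246 held 57.2% of its UMIs in xanthophore-like cells and 62.5% (24.5 to 91.5%) and 82.8% in leucophore-like cells, against 6.82% (1.43 to 18.7%) and 43.5% (23.2 to 65.5%) in keratinocyte-like cells. The keratinocyte-like interval of run 2 took in the xanthophore-like share and the leucophore-like share of run 1. For the myosin 1c pair, myo1ca held 77.6% of the UMIs in xanthophore-like and 94.1% and 90.1% in leucophore-like cells, against 16.8% and 38.4% in keratinocyte-like and 40.2% and 46.7% in fibroblast-like cells. myo1cb had 33.4 CPM in xanthophore-like and 6.19 and 13.0 CPM in leucophore-like cells and was not called. For these 3 pairs, the share of the first feature was higher in all xanthophore-like and leucophore-like sums than in all keratinocyte-like sums, and the T or NK cell-like sum of run 2 had 1 UMI of the myosin 1c pair, on myo1ca. The first feature was the one high in pigment cells, chosen from these same data, so the direction follows from that choice. The dynlt3 pair showed no such split, with 99.0% on ENSORLG00000001656 in xanthophore-like and 95.4% in leucophore-like cells of run 2, against 100% in both keratinocyte-like sums.

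**Figure D3:**
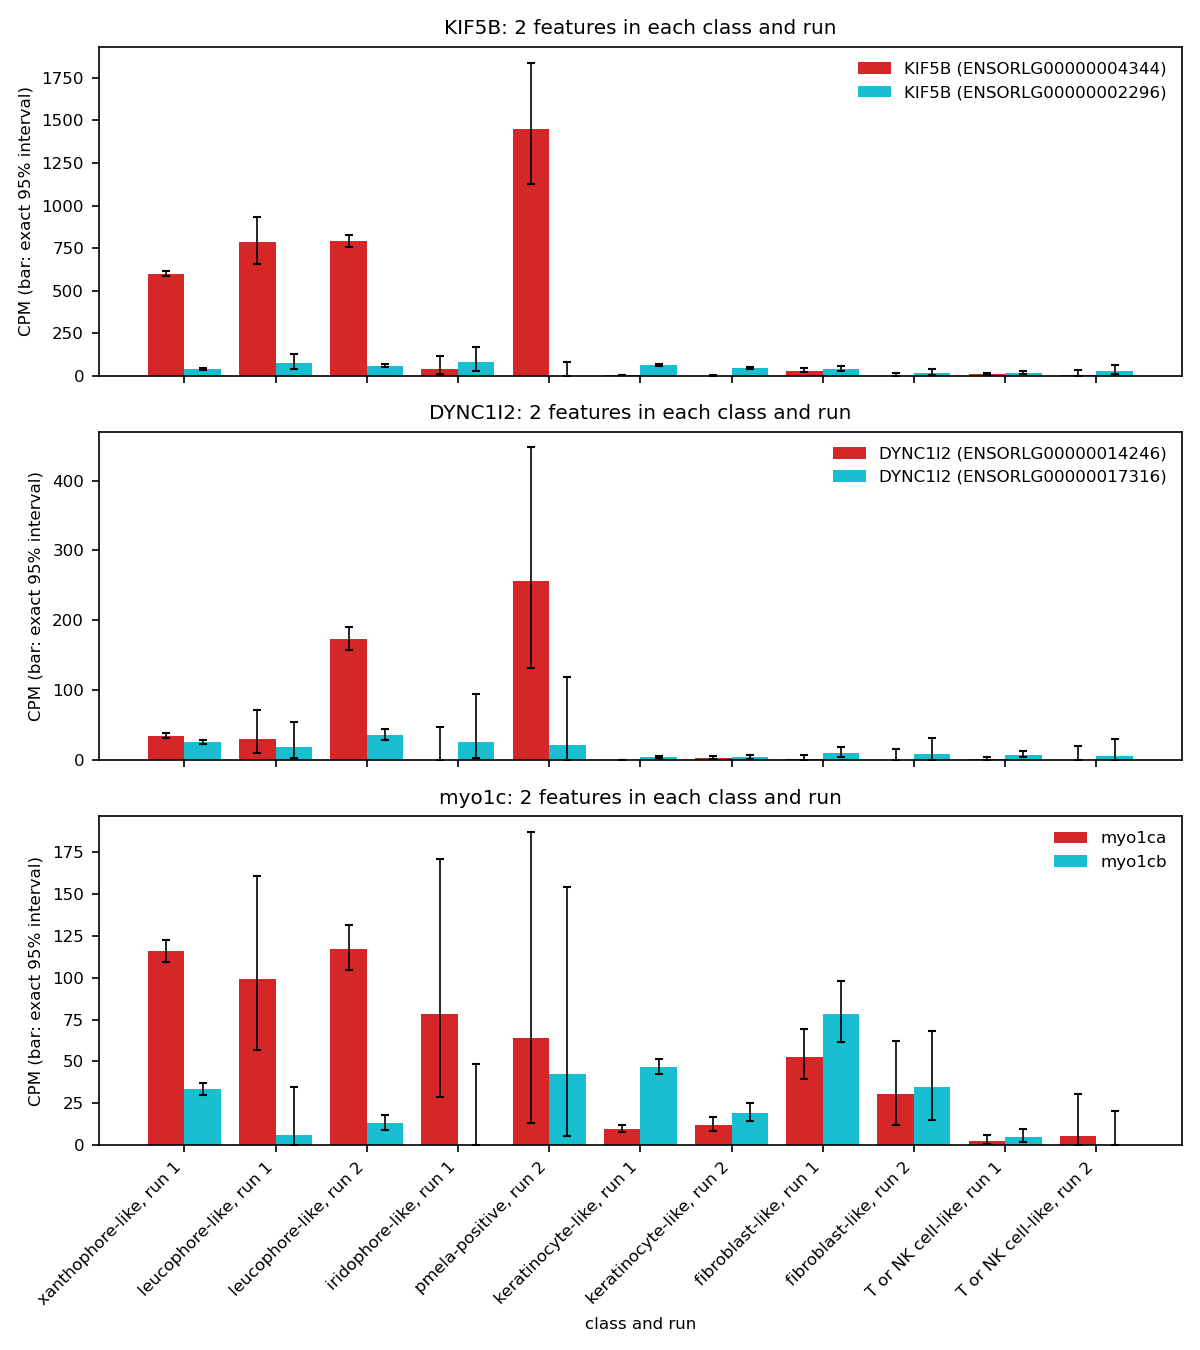
CPM of both features of KIF5B, DYNC1I2 and the myosin 1c pair in the 5 pigment and 6 skin sums shown, pigment classes on the left, with exact 95% Poisson intervals. The red bars, the features raised in pigment classes, stand at 598 to 793 CPM for KIF5B in the xanthophore-like sum of run 1 and the leucophore-like sums, while the second KIF5B feature stays at or below 78.6 CPM in the sums shown.

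Per cell, KIF5B (ENSORLG00000004344) was found in most xanthophore-like and leucophore-like cells. A UMI was present in 75.5% of xanthophore-like cells of run 1 (median 4348 UMIs per cell) and in 84.0% and 98.2% of leucophore-like cells (medians 6152 and 11782), against 1.99% and 0.610% of keratinocyte-like cells (medians 8365 and 15292.5). After each cell was thinned to 2000 UMIs, leaving out shallower cells, these shares were 58.3%, 80.0% and 75.9%, against 0.617% and 0%. MYO5A was present in 49.7% of thinned xanthophore-like cells and in 6 of 20 (run 1) and 42.7% (run 2) of thinned leucophore-like cells, against 0.493% and 0.680% of keratinocyte-like cells. dctn1a was present in 32.2% of thinned xanthophore-like cells and in 4 of 20 and 16.6% of thinned leucophore-like cells, against 4.07% and 0.680%. The part of free RNA in the keratinocyte-like shares was not tested. Thinned shares of KIF5B (ENSORLG00000004344) were 3.35% and 0% in fibroblast-like and 1.67% and 2.70% in T or NK cell-like cells. For MYO5A they were 2.24% and 0% in fibroblast-like and 0.625% and 0% in T or NK cell-like cells. In iridophore-like cells 2 of 18 thinned cells held KIF5B (ENSORLG00000004344). The thinning left out 352 xanthophore-like, 5 and 18 leucophore-like, 11 iridophore-like and 92 and 17 keratinocyte-like cells.

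Xanthophore-like cells were not uniform in their motors. They formed 5 clusters of run 1, with 741, 477, 475, 296 and 234 cells in clusters 0, 1, 2, 6 and 9, and the motor genes had no part in the clustering. KIF5B (ENSORLG00000004344) stood at 543, 1216, 392, 237 and 572 CPM in these clusters. Its level in cluster 1 thus lay far above that of cluster 6, and the exact intervals of 1168 to 1265 and 214 to 262 CPM are wide apart. MYO5A, at 354, 535, 530.2, 283 and 232 CPM, and kif1b, at 278, 384, 480 (451 to 510.3), 312 and 164 CPM, followed a different order, with cluster 2 at or near the top and cluster 9 lowest. klc1a, the light chain, had 20.2, 42.8, 36.7, 9.92 and 5.68 CPM. dctn3 hardly moved, at 118 to 126 CPM, and dctn1a ran from 169 to 221 CPM. The clusters come from the same cells, so this is a description with no test.

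**Figure D4:**
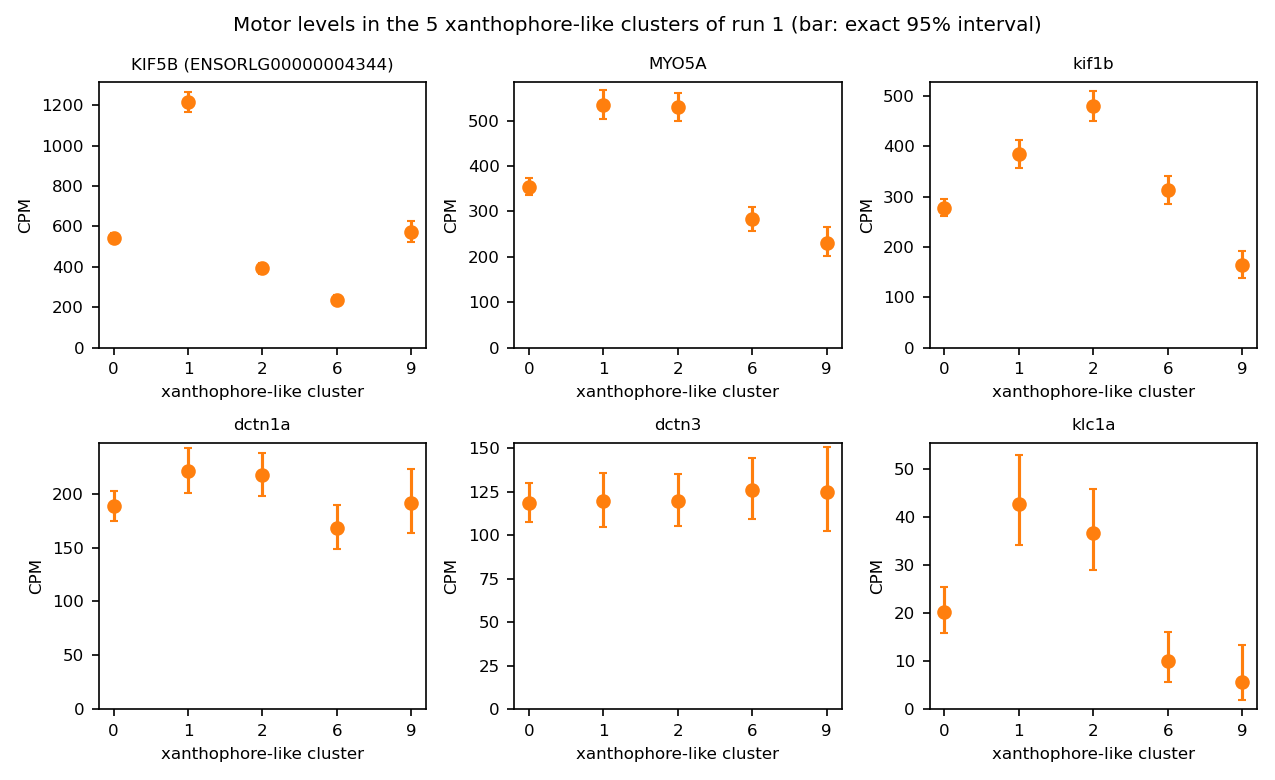
CPM of 6 motors in the 5 xanthophore-like clusters of run 1, with exact 95% Poisson intervals. KIF5B (ENSORLG00000004344) peaks in cluster 1 at 1216 CPM, kif1b in cluster 2, and dctn3 stays between 118 and 126 CPM.

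Adaptors that tie motors to their cargo rose along with them in part. Of 15 adaptor and regulator genes tested from a list of 35 features, 6 rose and 0 fell in xanthophore-like cells, 9 rose and 1 fell in leucophore-like cells, and 3 rose and 0 fell in iridophore-like cells, with medians of 1.12, 1.96 and −0.04. These are 40% higher in xanthophore-like, 60% higher and 6.67% lower in leucophore-like and 20% higher in iridophore-like cells. Over all genes 18.7%, 19.1% and 9.19% were higher and 12.9%, 13.8% and 4.69% lower, with medians of 0.002, 0.053 and −0.72. BICD1, which joins dynein and dynactin to vesicles, had 65.9 CPM in xanthophore-like, 18.6 and 68.6 CPM in leucophore-like and 183 CPM in iridophore-like cells, against 0 to 10.3 CPM in the skin sums. Its log2 fold changes were 4.57 (SE 0.55), 4.36 (SE 0.62) and 5.45 (SE 0.80), and every pigment sum lay above every skin sum. BICD2, of the same family, was also called in all 3, at 37.1 CPM, 68.1 and 54.9 CPM and 144 CPM, against 5.47 to 26.8 CPM. TRAK1, which couples kinesin-1 to mitochondria, had 64.8 CPM in xanthophore-like and 43.3 and 30.5 CPM in leucophore-like cells and was called in both (log2 fold change 2.15, SE 0.48, and 1.999, SE 0.51), although fibroblast-like cells of run 1 had 42.3 CPM. ARL8, a lysosomal GTPase, recruits kinesin-1, and arl8ba was called in leucophore-like (61.9 and 59.1 CPM) and iridophore-like cells (210 CPM), against 0 to 21.9 CPM in the skin sums. ndel1b, a dynein regulator, fell in leucophore-like cells by 1.15 (SE 0.36), at 161 and 115 CPM against 416 and 302 CPM in keratinocyte-like, 632 and 653 CPM in fibroblast-like and 58.2 and 43.8 CPM in T or NK cell-like cells. It also fell by 1.56 (SE 0.48) against xanthophore-like cells, which had 391 CPM.

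Genes of the tracks were called in both directions. Of 23 genes tested from 35 features for tubulins, microtubule-associated proteins, tropomyosins, myosin light chains and cytoplasmic actins, a list whose letters also take in 4 MAP4K kinases, 10 rose and 6 fell in xanthophore-like cells, 7 rose and 5 fell in leucophore-like cells and 2 rose and 3 fell in iridophore-like cells. The medians were 0.80, −0.11 and −1.10, beside the all-gene medians of 0.002, 0.053 and −0.72. Higher calls made up 43.5%, 30.4% and 8.70% of the track genes, beside 18.7%, 19.1% and 9.19% of all genes, and lower calls 26.1%, 21.7% and 13.0%, beside 12.9%, 13.8% and 4.69%. The iridophore-like share of higher calls is thus near that of all genes. map7d1b, of the MAP7 family that helps kinesin-1 onto microtubules, had 587 CPM in xanthophore-like and 279 and 188 CPM in leucophore-like cells, against 3.53 to 80.4 CPM (log2 fold change 4.82, SE 0.41, and 3.54, SE 0.36). MAP7D1, of the same family, had 5.14 CPM in xanthophore-like and 49.5 and 59.1 CPM in leucophore-like cells. The skin sums had 238 and 217 CPM in keratinocyte-like, 84.5 and 104 CPM in fibroblast-like and 5.29 and 0 CPM in T or NK cell-like cells. It was lower in xanthophore-like cells (−3.42, SE 0.60). Leucophore-like cells stood above xanthophore-like cells for it (3.31, SE 0.65).

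Between leucophore-like and xanthophore-like cells a few track genes were called. The test called 3 of the 23 track genes higher and 1 lower, and among the 15 adaptors it called 0 higher and 1 lower. Over all genes 4.84% were higher and 5.77% lower, and the lower shares of 4.35% and 6.67% are near that. tppp3, which bundles microtubules, had 266 and 132 CPM in leucophore-like cells and 0 UMIs in the xanthophore-like sum, and the skin sums reached at most 10.9 CPM. MAP6, which stabilises microtubules against cold, had 149 and 97.2 CPM in leucophore-like against 24.4 CPM in xanthophore-like cells (log2 fold change 2.69, SE 0.76). The actin gene actb1 was the 1 lower gene, with 37.1 and 78.5 CPM in leucophore-like cells, below the 468 CPM of xanthophore-like cells (−3.53, SE 0.55). The other cytoplasmic actin, actb2, was far more abundant, at 3119 and 4310.0 CPM against 4249 CPM, and was not called between these classes. Alternatives were run for the motors and not for these lists.

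Another 46 motors did not pass the filter. In the 6 classes 10 motors had under 10 UMIs, and 2 of these, both myosins, had none. KIF5A, a kinesin-1 heavy chain known from neurons, had 1 UMI (6.19 CPM) and 19.4 CPM in leucophore-like cells and 0 UMIs in every skin sum. It had 0.388 CPM in xanthophore-like cells. With no filter on low counts, KIF1A, dync1li1, dynll2a, dynll2b, kif7 and the second DYNC1I2 feature were also called higher in xanthophore-like cells, and KIF5A and kif7 in leucophore-like cells. KIF1A had the largest of these log2 fold changes, at 7.53 (SE 1.19).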

How the data were processed

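The authors deposited UMI counts per gene and barcode for 2 libraries of transcript 3′ ends from 10x Genomics droplets, made with Cell Ranger 7.1.0 per the file headers and the submitters' processing notes. For the genome build and the annotation: not given in the sources used here. Of the labels' groups there is 1, with 2 libraries. The members, marker and gene lists were chosen with earlier results of these data known.

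Barcodes with at least 500 UMIs, 300 genes and at most 20% mitochondrial UMIs were kept, 4503 and 577. Scrublet's automatic threshold marked 3 and 1, so the 4% with the highest scores per run were removed, 156 and 21. Clusters (scanpy 1.11.5, Leiden resolution 1, 2000 variable genes, 30 components) left 165 motor, adaptor, track and mitochondrial features out of the variable genes. Names came from 22 marker lists (146 of 241 symbols matched), with at least 3 markers in 10% of cells and 2-fold above the median cluster. The 4 unnamed clusters held 223 and 47 cells.

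Counts were summed per class and run, with sums of at least 10 cells fitted on all genes with the quasi-likelihood test of edgeR 4.0.16 under R 4.3.3 (TMM, filterByExpr, run as replicate block, 14 sums, 4 residual degrees of freedom). Every class is split from the same libraries, so same-run sums share a library. A printed SE is the log2 fold change's size over the root of F. CPM divides by a sum's UMIs, is not divided by gene length, since reads come from transcript 3′ ends, and orders of abundance between genes also depend on how well each 3′ end is annotated. Intervals are exact (Poisson, binomial or conditional), at 95%, and cover counting error only. The contrast takes the mean of the log levels of the 3 skin classes, with equal weight.

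Motors named are those called (at most 8 per direction and comparison), those known from pigment organelle transport, the most abundant of each family in each class, and any with no UMI in the pigment classes and at least 50 CPM in both runs of a skin class, which 0 met. The values of 1 motor called higher in xanthophore-like cells are counted but not reported here. The fit was tested on simulated sums with a fixed spread and no run effect. Of genes with a true log2 fold change of 2, it recovered 71 of 82 in leucophore-like cells against the skin classes. Against xanthophore-like cells it recovered 51 of 82. At a true log2 fold change of 4 it recovered 87 of 87 and 86 of 87. Of 5052 unchanged genes, 6 and 3 were called. Alternatives were RLE scaling, no filter, DESeq2 1.42.0, no replicate block, resolution 2, pmela-positive cells kept, each leucophore-like and skin-class sum left out in turn, and, chosen after seeing the data, the fit without the neutrophil-like sum or with 6 classes only. Other motors are given where a count of 5 or fewer or a contrast between copies needs them, chosen after their values were seen.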

Additional observations from a re-analysis of the deposited data

Results flagged for a closer look

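The log2 fold change of kif1b between leucophore-like and xanthophore-like cells, −1.82, marks a difference between 2 pigment classes whose changes were measured against the same skin classes. It was the 1 motor for which the test of that difference passed, and it is described with that comparison.

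Endothelial-like cells entered the fit but no comparison. Their cluster also met 6 mural and smooth muscle markers and 13 fibroblast markers, beside 8 endothelial ones, with acta2 among its leading genes. Their part in these values was not tested. In this cluster 5 of the 81 motors stood above every skin class in both runs. Their exact intervals lay above those of the skin classes. The share of all genes that did so was not computed. myh11a, the smooth muscle myosin heavy chain, had 367 and 396 CPM in the 46 and 22 endothelial-like cells of runs 1 and 2, with a UMI in 14 and 6 of them. MYH9 had 446 and 304 CPM, MYO1E 134 and 170.4 CPM and MYO1D 54.2 and 262 CPM. KIF26A, which also rose in xanthophore-like and leucophore-like cells, had 129 and 48.7 CPM.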

How the results depend on the processing

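Over 45 called motor comparisons and 16 alternatives, 631 of 717 values kept their direction and call, 86 kept the direction without the call, and 0 reversed. RLE scaling and resolution 2 lost none of the 45 calls, and DESeq2 lost 17. The count of motors called higher in xanthophore-like cells fell to 10 with DESeq2. The count called lower there was 1 with no filter, 1 with DESeq2 and 1 with no replicate block. In leucophore-like cells the count called lower was 1 with no filter, with DESeq2, with pmela-positive cells kept and with 6 classes only. In iridophore-like cells 1 motor was higher with no filter, 3 with DESeq2, 3 with no replicate block and 2 with 6 classes only, and 1, kif22, was lower at resolution 2 and without the neutrophil-like sum. KIF5B (ENSORLG00000004344) was gained as higher at resolution 2 and KIF13A with RLE scaling (3.03) and DESeq2. Between leucophore-like and xanthophore-like cells 1, KIF21B, was higher at resolution 2, and 0 were lower with no filter, with DESeq2 and with 6 classes only. The causes were not tested, apart from the number of motors tested, which was 80 with no filter, 55 with 6 classes and 29 without the neutrophil-like sum. Its 12 cells and 16559 UMIs let 6 of the 35 motors through the filter.

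Leaving out 1 leucophore-like or skin-class sum at a time gave 14 to 17 higher and 0 to 3 lower motors in xanthophore-like, 13 to 18 and 0 to 3 in leucophore-like, 2 to 6 and 0 to 1 in iridophore-like cells, and 0 to 2 and 0 to 2 between leucophore-like and xanthophore-like cells. Without the T or NK cell-like sum of run 1, 0 motors were lower in xanthophore-like and 2 higher in iridophore-like cells. Without the leucophore-like sum of run 1, 0 were lower in leucophore-like cells, and against xanthophore-like cells KIF5B (ENSORLG00000004344) and KIF21B became higher and kif1b was lost. No replicate block lost 6 of the 45 calls. Iridophore-like values rest on 1 to 14 UMIs per motor, and a count of 0 there has an exact upper limit of 48.3 CPM.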

Other observations

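The 4 xanthophore-like cells of run 2 without pmela were not used in the test. They held 18 UMIs, or 553 CPM, of 9 kinesin features known for the mitotic spindle, with a UMI in 8 of the 9, against 218 UMIs or 21.2 CPM in the 2223 xanthophore-like cells of run 1. This set was chosen after its values were seen, and 4 cells give no spread. Their KIF5B (ENSORLG00000004344) stood at 92.2 CPM from 3 UMIs, below the 598 CPM of run 1, and the exact interval of 19.0 to 269 CPM does not reach that level.

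The spindle kinesins summed to 116 CPM in T or NK cell-like cells of run 1 and to 10.9 CPM, from 2 UMIs, in those of run 2. Iridophore-like cells of run 1 held 0 of these UMIs. In that sum of 76375 UMIs a count of 0 has an exact upper limit of 48.3 CPM.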
